A study of Mus musculus with 4 samples.

Results

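The genes described here are 38 members of the routes by which liver breaks down, makes and stores glucose, taken by symbol from a table of 56748 genes. Each symbol was found, Aldoa on 2 entries. Livers came from 2 NSG mice given JIB-04 and from 2 untreated NSG mice, 1 library per animal. JIB-04, which blocks histone demethylases of the Jumonji type, was given by oral gavage at 55 mg/kg, 2 doses a week, for 5 doses in all. The control animals were untreated rather than given a vehicle. NSG is an immunodeficient mouse strain without mature B, T or natural killer cells, and the genotype in both groups is labelled WT. The sources used here give no age, feeding state or hour of collection. Values are the authors' FPKM, reads scaled for gene length and library size. The deposited gene length often exceeds the longest coding transcript in GENCODE M21, and by uneven factors. It was 4133 against 1420 bases for Gapdh, 6675 against 3730 for Pfkl and 3340 against 2879 for Pfkm. Levels of different genes, and isozyme shares, are therefore only roughly comparable, while each gene has the same length in every library. The libraries held 36469514 to 43283827 recovered reads.

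Glycolysis splits glucose into pyruvate, and gluconeogenesis runs most of the same reversible steps backwards to make glucose, with its own enzymes at the irreversible steps. Liver stores glucose as glycogen after a meal and releases free glucose in fasting, because it carries the glucose-6-phosphatase that most tissues lack. Several steps are served by isozymes, of which hepatocytes use a particular form (GLUT2 for transport, liver pyruvate kinase, liver phosphorylase and liver glycogen synthase).

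In JIB-04 against untreated liver, 0 of the 33 members with a mean of at least 1 FPKM passed the test across all genes (limma on log2(FPKM + 1), Benjamini-Hochberg adjusted p under 0.05). Of all 10819 genes tested, 2.14% passed. Before adjustment, p was under 0.05 for 10 of the 33 members (30.3%), against 15.5% of all genes tested (9.06% higher and 6.47% lower in JIB-04 liver). Of those 10, Ppp1r3c, G6pc, Ldha, Pfkfb1, Slc2a2, Fbp1 and Pfkl stood lower in JIB-04 liver, and Aldoa, Gpi1 and Gbe1 higher. With voom on recovered reads, Pfkfb1 and Ldha passed (adjusted p = 0.0175 and 0.0213), as did 4.77% of all genes. JIB-04 and untreated values did not overlap in 15 of the 33 members, with JIB-04 lower in 10 and higher in 5. That is 45.5%, beside 46.4% of all genes tested (24.6% with JIB-04 higher and 21.8% with JIB-04 lower), so the share of members without overlap was near that of all genes. The median log2 change (JIB-04 minus untreated) was -0.11 over the 33 members and 0.01 over all genes tested, and the median size of the change was 0.25 and 0.14. With 2 against 2 livers the smallest exact two-sided permutation p is 1 in 3, so each gene is judged by the fit across all genes.

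**Figure D1:**
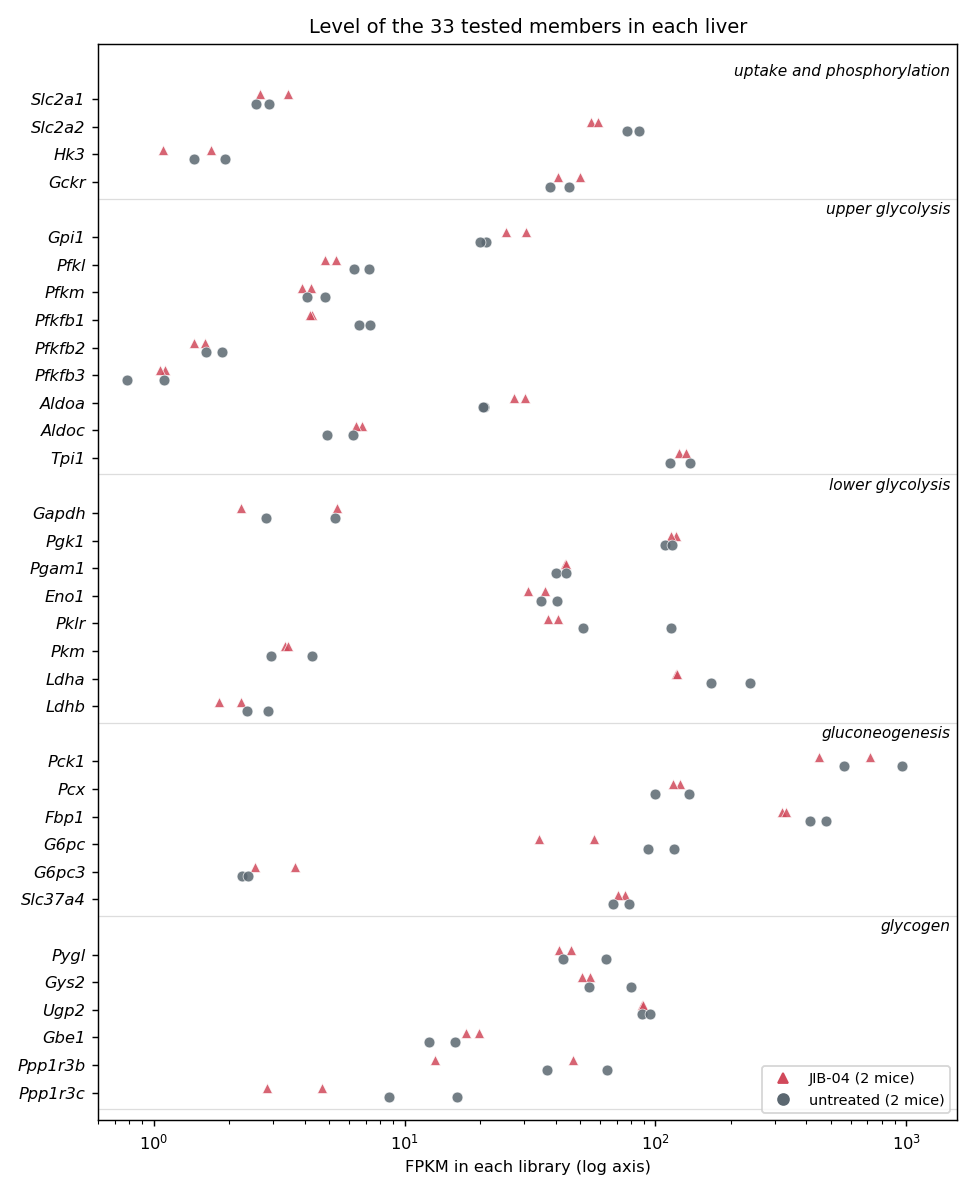
FPKM (log axis) of the 33 tested members in each library, ordered by step; triangles are the 2 JIB-04 livers and circles the 2 untreated livers. Levels run from about 1 FPKM for Pfkfb3 to 958 FPKM for Pck1. The 2 JIB-04 triangles lie left of both untreated circles for 10 members, among them G6pc, Ldha, Fbp1, Slc2a2 and Pfkfb1, and right of both for 5. Groups did not overlap in 45.5% of these members and in 46.4% of all genes tested.

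Marker genes showed whose RNA the libraries held. The 7 hepatocyte markers, albumin among them, summed to 52468.3 and 46054.5 FPKM in JIB-04 liver and to 75989.9 and 71720 in untreated liver, with 0 of 7 passing the test. The 6 red cell markers summed to 655 and 1782 FPKM in JIB-04 liver and to 2952 and 1845 in untreated liver, and the 6 neutrophil markers to 45.4 and 73.1 in JIB-04 liver against 27.0 and 6.87 in untreated liver. Hepatocyte and red cell sums were thus lower in both JIB-04 livers. The neutrophil sum was higher there, but mostly through S100a8, at 36.3 and 63.0 FPKM in JIB-04 liver and 6.68 and 2.40 in untreated liver. S100a9 overlapped, at 7.51 and 8.45 FPKM in JIB-04 liver and 18.7 and 4.01 in untreated liver, and Ngp was lower in both JIB-04 livers, at 0.191 and 0.156 FPKM against 0.803 and 0.433 in untreated liver. The 5 skeletal muscle markers summed to 0.422 and 0.205 FPKM in JIB-04 liver, but to 14.4 in untreated 1 and 0.543 in untreated 2. Macrophage (7 markers), endothelial (6) and bile duct (5) sums overlapped between groups, the 6 stellate markers summed to 37.6 and 34.2 in JIB-04 liver against 52.2 and 40.4 in untreated liver, and of the 6 lymphoid markers 4 were at 0 in all libraries. The part of these differences in the values below was not tested. In whole liver, fewer cells of a type and less RNA per cell cannot be told apart.

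Glucose uptake and phosphorylation were represented by 2 transporters, 3 hexokinases and a regulator. Slc2a2 encodes GLUT2, the main glucose carrier of the hepatocyte surface (ENSMUSG00000027690, chromosome 3, 28752052 to 28785508, GRCm39). It was at 55.5 and 58.8 FPKM in JIB-04 1 and 2, against 76.8 and 86.0 in untreated 1 and 2. Both JIB-04 values lay below both untreated values, a ratio of group means of 0.702 (log2 change -0.50, SE 0.125, limma adjusted p = 0.112). Slc2a1, the GLUT1 carrier of red cells and many other cells, was at 3.42 and 2.66 FPKM in JIB-04 liver and 2.89 and 2.57 in untreated liver. The GLUT1 share of the summed FPKM of both carriers was 5.80% and 4.32% in JIB-04 liver, against 3.62% and 2.90% in untreated liver.

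Gckr encodes a regulatory protein of sugar phosphorylation in hepatocytes. It was at 40.8 and 50.2 FPKM in JIB-04 liver and at 37.8 and 45.2 in untreated liver, so the groups overlapped (log2 change 0.13, limma adjusted p = 0.778). The 3 hexokinases among the members were scarce, on 172 to 260 reads per library for Hk3, 107 to 169 for Hk1 and 39 to 82 for Hk2. Hk3, the form of white blood cells, was at 1.09 and 1.69 FPKM in JIB-04 liver and at 1.93 and 1.45 in untreated liver. Hk1 and Hk2 stayed under 1 FPKM and were not tested, with Hk1 at 0.391 and 0.342 FPKM in JIB-04 liver and 0.521 and 0.524 in untreated liver. Red cells use Hk1, and the red cell marker sum above was also lower in both JIB-04 libraries. Of the JIB-04 livers, JIB-04 1 had the lower red cell sum and the higher Hk1 value. A link between Hk1 and red cell content was not tested.

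In the upper part of glycolysis, the largest difference was in Pfkfb1. This gene encodes the liver form of the bifunctional enzyme that makes and removes fructose 2,6-bisphosphate, an activator of phosphofructokinase and inhibitor of fructose bisphosphatase (ENSMUSG00000025271, chromosome X, 149371225 to 149426874). It was at 4.27 and 4.18 FPKM in JIB-04 liver, against 6.55 and 7.26 in untreated liver. The JIB-04 livers were close to each other and both below the untreated livers, with a ratio of means of 0.612 (log2 change -0.60, SE 0.120). Its limma adjusted p of 0.0618 was the lowest among the members. Pfkfb1 passed when only genes of at least 5 FPKM were tested (adjusted p = 0.0447).

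The other 3 PFKFB forms were scarce. Pfkfb2, the heart form, was at 1.44 and 1.60 FPKM in JIB-04 liver and 1.62 and 1.88 in untreated liver, and Pfkfb3, the inducible form, at 1.10 and 1.06 against 0.779 and 1.10. Pfkfb4 stayed under 1 FPKM and was not tested. Pfkfb1 took 59.8% and 57.5% of the summed FPKM of the 4 forms in JIB-04 liver, against 70.7% and 68.4% in untreated liver, a difference of -10.9 percentage points. The shares did not overlap.

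Phosphofructokinase itself commits sugar to glycolysis. Pfkl, its liver subunit, was at 5.32 and 4.83 FPKM in JIB-04 liver and at 7.23 and 6.27 in untreated liver, with no overlap (log2 change -0.35, limma adjusted p = 0.254). Pfkm, the muscle subunit, was at 3.89 and 4.22 FPKM in JIB-04 liver and 4.82 and 4.07 in untreated liver. The Pfkm groups overlapped (log2 change -0.10, limma adjusted p = 0.790). Muscle marker sums were highest in untreated 1 and lowest in JIB-04 2, the libraries with the highest and the next highest Pfkm value. A link between Pfkm and muscle RNA was not tested. Pfkp, the platelet subunit, was not tested, at a mean of 0.153 FPKM over the 4 libraries.

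Of the reversible upper steps, the isomerase Gpi1 and the aldolase Aldoa stood higher in both JIB-04 livers. Gpi1, which interconverts glucose 6-phosphate and fructose 6-phosphate, was at 25.3 and 30.6 FPKM in JIB-04 liver, against 21.1 and 19.97 in untreated liver (log2 change 0.42, SE 0.135, limma adjusted p = 0.196). Aldoa, aldolase A (ENSMUSG00000030695, chromosome 7, 126394406 to 126399923), was at 27.3 and 30.2 FPKM in JIB-04 liver and at 20.7 and 20.5 in untreated liver. The groups did not overlap for either gene, and the ratio of means was 1.36 for Gpi1 and 1.39 for Aldoa (Aldoa log2 change 0.46, SE 0.120, limma adjusted p = 0.125). Its other entry held a value above 0 only in untreated 1, 0.171 FPKM, and was not tested. Aldoc, the brain aldolase, was at 6.73 and 6.38 FPKM in JIB-04 liver and 4.91 and 6.23 in untreated liver. Tpi1, triose phosphate isomerase, was at 125 and 132 FPKM in JIB-04 liver and 115 and 137 in untreated liver. Its groups overlapped, with a 95% interval of the log2 change of -0.30 to 0.36.

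**Figure D2:**
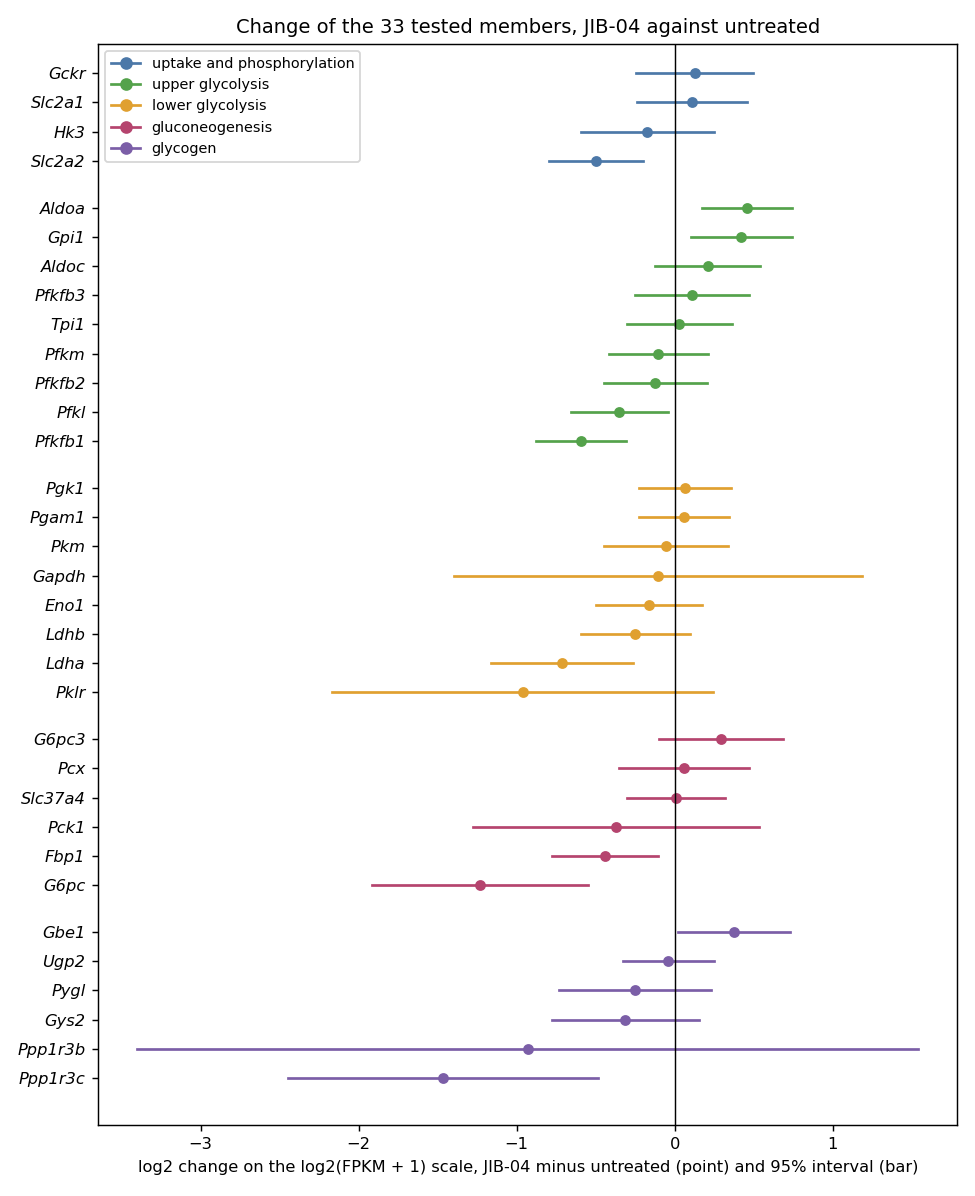
Log2 change (JIB-04 minus untreated, on the log2(FPKM + 1) scale) of the 33 tested members, grouped by step, with bars for the 95% interval of the moderated test. Intervals of 10 members lie on 1 side of 0, and those of Ppp1r3b, Gapdh, Pklr and Ppp1r3c are the widest.

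In the lower part of glycolysis, Pgk1, Pgam1 and Eno1, of the steps from triose phosphate to phosphoenolpyruvate, had overlapping values. Pgk1, phosphoglycerate kinase, was at 121 and 115 FPKM in JIB-04 liver and 109 and 117 in untreated liver (95% interval of the log2 change -0.23 to 0.35). Pgam1, phosphoglycerate mutase, was at 43.7 and 44.1 FPKM in JIB-04 liver and 40.3 and 43.9 in untreated liver (interval -0.22 to 0.34). Eno1, enolase, was at 31.1 and 36.4 FPKM in JIB-04 liver and 35.1 and 40.7 in untreated liver (interval -0.50 to 0.17). The groups overlapped in all 3 of these genes.

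Gapdh, which oxidises glyceraldehyde 3-phosphate and is often used as a reference gene, was at only 5.36 and 2.23 FPKM in JIB-04 liver and 2.80 and 5.28 in untreated liver. Its mean of 3.92 FPKM stood beside 127 for Tpi1 and 115 for Pgk1, the steps just before and after it. The deposited Gapdh length, 4133 bases, lies further above its longest coding transcript (1420) than those of Tpi1 (2753 against 1607) and Pgk1 (2244 against 1825). This lowers Gapdh FPKM more than theirs. Gapdh also had fewer reads per library, 339 to 950, against 11585 to 14694 for Tpi1 and 8963 to 11596 for Pgk1. The part of gene length in the Gapdh value was not tested. In the GENCODE M21 transcripts, 82.5% of the 50-base stretches of the Gapdh transcript also occur in transcripts of 222 other genes, so its value is uncertain. Such sharing reached 72.2% for Eno1, 68.0% for Pgk1, 41.5% for Pgam1 and 34.4% for Pkm, and was over 20% for 9 members in all. The remaining 4 of those 9 were Ldhb (27.0%), Gpi1 (25.3%), Pfkfb2 (25.1%) and Pklr (23.2%).

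Pyruvate kinase closes glycolysis. Pklr, its liver and red cell form, was at 40.9 and 37.3 FPKM in JIB-04 liver, against 51.4 in untreated 1 and 115 in untreated 2. Both JIB-04 livers lay below both untreated livers, but the untreated livers differed 2.24-fold from each other (log2 change -0.96, SE 0.428, limma adjusted p = 0.423). The value rested on which untreated liver was used: the log2 change was -1.54 without untreated 1 (adjusted p = 0.01004) and -0.39 without untreated 2 (adjusted p = 0.449). Over the alternatives tried its adjusted p ran up to 0.636. Pkm, the form of most other tissues, was at 3.33 and 3.44 FPKM in JIB-04 liver and 4.26 and 2.93 in untreated liver. Pklr made up 92.5% and 91.6% of their sum in JIB-04 liver and 92.4% and 97.5% in untreated liver. Hcn3 (mean 3.91 FPKM) overlaps Pklr (61.3) on the opposite strand, as Apex2 (0.813) does Pfkfb1 (5.56) and Yod1 (3.23) does Pfkfb2 (1.64). Other such pairs include Iffo1 (1.57) with Gapdh (3.92), Spsb2 (7.68) with Tpi1 (127), Senp1 (0.877) with Pfkm (4.25) and Pitrm1 (6.58) with Pfkp (0.153). Without a known strand setting, reads from the overlapping stretches of these pairs cannot be told apart.

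Lactate dehydrogenase interconverts pyruvate and lactate. Ldha, its main liver subunit here (ENSMUSG00000063229, chromosome 7, 46490899 to 46505051), was at 121 and 122 FPKM in JIB-04 liver, against 239 in untreated 1 and 167 in untreated 2. The JIB-04 livers were nearly equal and below both untreated livers, with a ratio of means of 0.598 (log2 change -0.71, SE 0.187, limma adjusted p = 0.130). Its log2 change was -0.97 without untreated 2, where it passed (adjusted p = 0.0470), and -0.45 without untreated 1 (adjusted p = 0.356). Its adjusted p ran up to 0.439 when no filter on low values was used. Ldhb, the heart subunit, was at 1.83 and 2.24 FPKM in JIB-04 liver and 2.85 and 2.36 in untreated liver.

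Of the enzymes particular to gluconeogenesis, G6pc and Fbp1, which act last, stood lower in both JIB-04 livers, while those of the first steps overlapped. Pcx, pyruvate carboxylase, was at 126 and 117 FPKM in JIB-04 liver and 136 and 99.5 in untreated liver (95% interval of the log2 change -0.35 to 0.47). Pck1, the cytosolic phosphoenolpyruvate carboxykinase and the most abundant member, was at 451 and 715 FPKM in JIB-04 liver, against 958 and 565 in untreated liver. Each group spanned more than 1.5-fold between its animals, and the groups overlapped (log2 change -0.37, SE 0.348, limma adjusted p = 0.701). Pck2, the mitochondrial form, stayed under 1 FPKM and was not tested.

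Fbp1, fructose-1,6-bisphosphatase (ENSMUSG00000069805, chromosome 13, 63012567 to 63036096), was at 320.3 and 332 FPKM in JIB-04 liver, against 477 and 413 in untreated liver. Both JIB-04 values were lower, a ratio of means of 0.734 (log2 change -0.44, SE 0.140, limma adjusted p = 0.191). Set against the opposing enzyme of the same step, the ratio of Fbp1 to Pfkl FPKM was 60.2 and 68.8 in JIB-04 liver and 65.9 and 65.8 in untreated liver, and the groups overlapped.

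G6pc encodes the catalytic subunit of glucose-6-phosphatase, which frees glucose for export (ENSMUSG00000078650, chromosome 11, 101258387 to 101268729). It was at 34.3 and 56.9 FPKM in JIB-04 liver, against 93.5 and 118 in untreated liver. Group means were 45.6 ± 16.0 and 106 ± 17.5 FPKM (SD, n = 2 each), a ratio of 0.431 with no overlap (log2 change -1.23, SE 0.268, limma adjusted p = 0.111). The 95% interval of its log2 change was -1.91 to -0.55. G6pc3, the form expressed in all tissues, was at 2.53 and 3.67 FPKM in JIB-04 liver and 2.25 and 2.37 in untreated liver, and its share of the sum of both forms was 6.86% and 6.06% against 2.35% and 1.96%. Slc37a4, the transporter that brings glucose 6-phosphate to the enzyme in the endoplasmic reticulum, was at 75.7 and 70.9 FPKM in JIB-04 liver and 67.7 and 78.3 in untreated liver, a log2 change of 0.01 with an interval of -0.30 to 0.32. Liver lobules make glucose mainly in their periportal zone. The 5 periportal markers summed to 826 and 942 FPKM in JIB-04 liver and 988 and 1263 in untreated liver, and the 5 pericentral markers to 3354 and 3424 in JIB-04 liver and 4324 and 3069 in untreated liver. The periportal genes differed among themselves, with 0 of 5 passing the test. Ass1, Sds and Gls2 were lower in both JIB-04 livers, Ass1 at 357 and 379 FPKM against 591 and 807 in untreated liver. Cyp2f2 was higher in both, at 323 and 406 FPKM against 213 and 245 in untreated liver. Hal hardly differed, at 46.09 and 48.18 FPKM in JIB-04 liver and 46.05 and 45.38 in untreated liver (log2 change 0.04, limma adjusted p = 0.915). Of the 10, only Oat was called (higher, limma adjusted p = 0.0248), and their part in the G6pc and Fbp1 values was not tested.

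**Figure D3:**
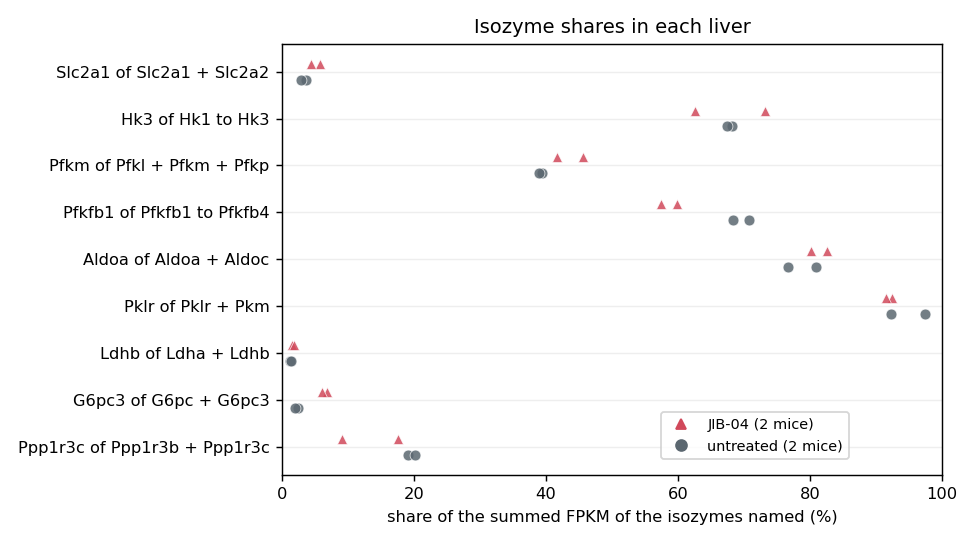
Share (%) that 1 isozyme takes of the summed FPKM of the isozymes named on each line, in the 2 JIB-04 livers (triangles) and the 2 untreated livers (circles). The Pfkfb1 share lies between 57.5% and 59.8% in JIB-04 liver and between 68.4% and 70.7% in untreated liver, while the Hk3, Aldoa and Pklr shares overlap.

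Among the glycogen genes, the targeting subunits that bring protein phosphatase 1 to glycogen varied most. Ppp1r3c, also called PTG (ENSMUSG00000067279, chromosome 19, 36709131 to 36714053), was at 4.69 and 2.82 FPKM in JIB-04 liver, against 8.68 and 16.1 in untreated liver. The groups did not overlap, and the ratio of means, 0.303, was the lowest among the tested members (log2 change -1.47, SE 0.360, limma adjusted p = 0.172). Each group spread more than 1.5-fold. Ppp1r3c passed without untreated 1 (log2 change -1.88, adjusted p = 0.0349) and not without untreated 2 (log2 change -1.05, adjusted p = 0.167). Ppp1r3b, the liver targeting subunit GL, was at 47.1 and 13.2 FPKM in JIB-04 liver, against 36.9 and 64.1 in untreated liver. JIB-04 1 lay between the untreated livers and JIB-04 2 below them, so the 95% interval of the log2 change ran from -3.40 to 1.54.

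The enzymes that build and break glycogen were steadier. Gys2, liver glycogen synthase, was at 55.1 and 50.8 FPKM in JIB-04 liver and 79.9 and 54.4 in untreated liver (log2 change -0.31, limma adjusted p = 0.531). Pygl, liver glycogen phosphorylase, was at 41.3 and 46.2 FPKM in JIB-04 liver and 42.9 and 63.6 in untreated liver (log2 change -0.25, adjusted p = 0.631). In both genes the groups overlapped and a single untreated liver stood highest, untreated 1 for Gys2 and untreated 2 for Pygl. Ugp2, which makes the UDP-glucose that glycogen is built from, was at 88.8 and 89.6 FPKM in JIB-04 liver and 88.1 and 95.5 in untreated liver (interval -0.33 to 0.25). Gbe1, the branching enzyme, was at 19.8 and 17.5 FPKM in JIB-04 liver and 12.6 and 15.9 in untreated liver, higher in both JIB-04 livers (log2 change 0.37, SE 0.149, limma adjusted p = 0.294).

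**Figure D4:**
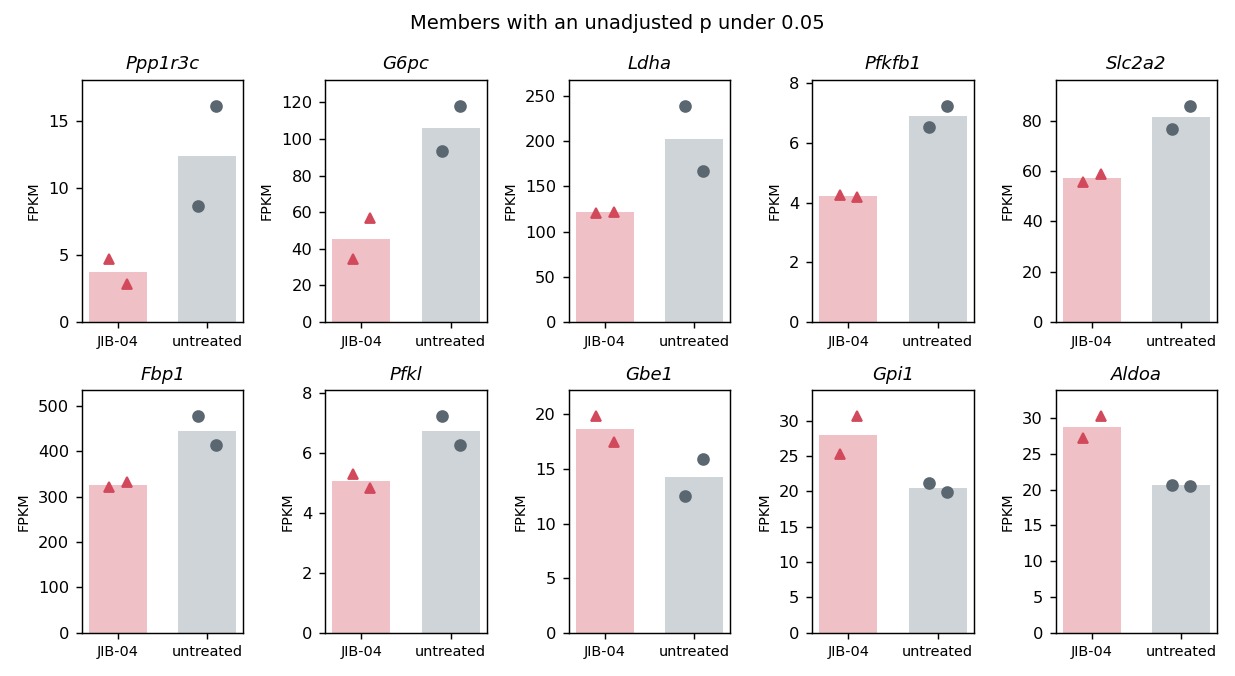
FPKM of the 10 members with an unadjusted p under 0.05, each panel with JIB-04 (triangles) left of untreated (circles); bars are means of 2 livers and start at 0. In each panel the groups do not overlap, and G6pc is at 34.3 and 56.9 in JIB-04 liver against 93.5 and 118 in untreated liver.

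The promoters of Ppp1r3c, G6pc and Ldha are shown because these 3 members had the largest changes among those with an unadjusted p under 0.05. Each window holds 250 bases before and 50 after the start site on the gene's own strand (RefSeq, build GRCm38.p6). Capitals mark matches, on either strand, to an E-box (CACGTG), a CRE (TGACGTCA), a CRE-like palindrome (TTACGTAA), an insulin response core (TGTTTTG) or a TATA box (TATAAA). The windows are chr19:36736555-36736854 on the minus strand for Ppp1r3c, chr11:101367466-101367765 on the plus strand for G6pc, and chr7:46845554-46845853 on the plus strand for Ldha, the upstream of 2 Ldha starts listed.
Ppp1r3c: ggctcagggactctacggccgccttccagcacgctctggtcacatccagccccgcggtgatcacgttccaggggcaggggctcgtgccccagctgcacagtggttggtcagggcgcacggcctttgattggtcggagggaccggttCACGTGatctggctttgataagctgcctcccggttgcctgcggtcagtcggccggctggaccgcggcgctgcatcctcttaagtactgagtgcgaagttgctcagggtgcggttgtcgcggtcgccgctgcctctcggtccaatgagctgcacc
G6pc: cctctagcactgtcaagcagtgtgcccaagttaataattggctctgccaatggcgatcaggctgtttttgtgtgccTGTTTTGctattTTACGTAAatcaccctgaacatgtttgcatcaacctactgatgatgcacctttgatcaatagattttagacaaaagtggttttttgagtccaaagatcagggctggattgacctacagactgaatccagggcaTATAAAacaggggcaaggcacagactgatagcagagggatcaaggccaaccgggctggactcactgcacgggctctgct
Ldha: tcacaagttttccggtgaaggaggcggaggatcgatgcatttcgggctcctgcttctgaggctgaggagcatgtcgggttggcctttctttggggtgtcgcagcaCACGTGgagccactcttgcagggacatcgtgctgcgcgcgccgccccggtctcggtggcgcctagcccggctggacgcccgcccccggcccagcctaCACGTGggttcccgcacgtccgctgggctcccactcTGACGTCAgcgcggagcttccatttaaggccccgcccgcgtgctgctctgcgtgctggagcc

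The G6pc window held the insulin response core at -174, the CRE-like palindrome at -162 and the TATA box at -29, counted with the start site as 0. The Ldha window held an E-box at -145, another at -48 and a CRE at -12, and the Ppp1r3c window held an E-box at -104. None of the matches overlapped another. The 36 members with an entry had 58 windows, of which 7 held an E-box, 3 the insulin response core, 5 a TATA box, 1 a CRE and 1 the CRE-like palindrome. Among all 32851 windows, 7.15% held an E-box, 6.28% the insulin response core, 13.6% a TATA box, 1.79% a CRE and 0.119% the CRE-like palindrome. A match describes letters and is not a measured binding site.

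Other genes of the pathway were taken from 6 lists with 96 symbols, of which 77 were tested. Of these 77, 3 passed as higher, 0 as lower and 74 did not pass, beside 1.53% higher and 0.619% lower among all genes tested. The 3 were Stbd1, Gaa and Ldhd, the first 2 from the glycogen list. Stbd1, a starch-binding protein that tethers glycogen to membranes for delivery to lysosomes (ENSMUSG00000047963, chromosome 5, 92750900 to 92754438), rose to 58.2 and 66.6 FPKM in JIB-04 liver, against 36.0 and 34.7 in untreated liver. Its ratio of means was 1.76 (log2 change 0.80, SE 0.126, limma adjusted p = 0.0337). Gaa, the acid alpha-glucosidase that digests glycogen inside lysosomes (ENSMUSG00000025579, chromosome 11, 119158713 to 119176280), rose to 32.4 and 30.7 FPKM in JIB-04 liver, against 19.4 and 16.3 in untreated liver (log2 change 0.79, SE 0.132, adjusted p = 0.0398). In both genes each JIB-04 liver was above each untreated liver.

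Ldhd, the mitochondrial dehydrogenase of D-lactate (ENSMUSG00000031958, chromosome 8, 112350417 to 112357006), rose to 41.8 and 42.6 FPKM in JIB-04 liver, against 25.9 and 26.6 in untreated liver (log2 change 0.67, SE 0.115, limma adjusted p = 0.0409). The 4 values formed 2 close pairs. Ldhd (mean 34.2 FPKM) overlaps Znrf1 (4.03) on the opposite strand. The strand setting of the counting is not known, so reads from the overlapping stretch cannot be told apart. The calls of Stbd1, Gaa and Ldhd ended without any one library, at adjusted p of 0.102 to 0.191 for Stbd1, 0.0629 to 0.197 for Gaa and 0.133 to 0.197 for Ldhd. They also ended without the filter on low values (0.222, 0.256 and 0.227) and with neither trend nor robust moderation (0.0523, 0.0604 and 0.0604). Quantile normalization ended those of Gaa (0.0513) and Ldhd (0.0529), and TPM rescaling without the most abundant genes that of Ldhd (0.05002). With voom all 3 passed (0.00393, 0.00365 and 0.00947).

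The glycogen list held 23 symbols beyond the members, of which 14 were tested, 2 were called higher, 0 lower and 12 did not pass. Its median log2 change was 0.18, with values above 0 in 12 of 14, beside a median of 0.01 and 51.4% above 0 over all genes tested, of which 2.14% were called. The 6 glycogen members had a median of -0.28. Ppp1r3g, a further glycogen targeting subunit, was at 1.32 and 2.51 FPKM in JIB-04 liver and 0.688 and 0.344 in untreated liver (log2 change 0.92, limma adjusted p = 0.123). Its values rested on 153 and 248 reads against 68 and 35.

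**Figure D5:**
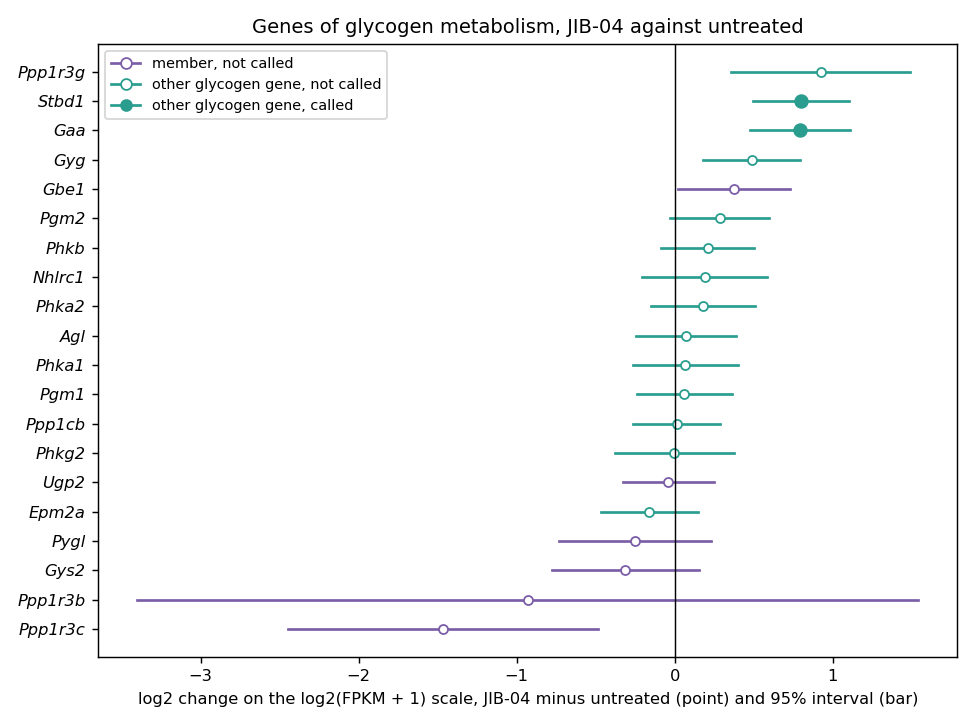
Log2 change (JIB-04 minus untreated) of the 6 glycogen members and the 14 other tested genes of glycogen metabolism, with bars for the 95% interval. Filled points passed the test: Stbd1 at 0.80 and Gaa at 0.79, near the opposite end from Ppp1r3c at -1.47.

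Of the 12 other sugar enzymes tested, Ldhd was called higher, 0 were called lower and 11 did not pass. Among all genes tested, 1.53% were called higher and 0.619% lower. Bpgm, which makes the 2,3-bisphosphoglycerate of red cells, was at 4.30 and 5.79 FPKM in JIB-04 liver and 7.995 and 6.85 in untreated liver (limma adjusted p = 0.203). The red cell marker sum was also lower in both JIB-04 libraries, and a link with Bpgm was not tested. Pgam2, the muscle mutase, was at 1.08 and 0.519 FPKM in JIB-04 liver and 1.56 and 1.32 in untreated liver (adjusted p = 0.312). It was highest in untreated 1, and a link with the muscle marker sum was not tested. Among all genes tested, 2.14% passed with limma, 15.5% had an unadjusted p under 0.05 and 4.77% passed with voom. Of 7 sugar, lactate and pyruvate transporters tested, 0 passed with limma, 1 had an unadjusted p under 0.05 and 1 passed with voom. That gene was Slc16a1, the MCT1 carrier of lactate and pyruvate, at 15.3 and 15.7 FPKM in JIB-04 liver and 10.5 and 10.7 in untreated liver (limma adjusted p = 0.0766, voom 0.0359). Mpc1 and Mpc2, the mitochondrial pyruvate carrier, had 6.79 and 7.84 (Mpc1) and 23.2 and 27.7 FPKM (Mpc2) in JIB-04 liver, against 7.86 and 8.70 (Mpc1) and 30.6 and 28.4 FPKM (Mpc2) in untreated liver (limma adjusted p = 0.636 and 0.545).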

How the data were processed

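Liver RNA of 4 NSG mice was sequenced, and the authors deposited FPKM values per gene with gene length and coordinates, per the file headers. Coordinates are on GRCm39 (mm39), per the submitters' processing notes. Of the aligner, counter, annotation release and strandedness the sources used here say nothing. Each FPKM times gene length was a whole multiple of 1 step (100% of values, tolerance 0.01), which gave the reads. JIB-04 was compared with untreated liver in limma 3.58.1 under R 4.3.3 (two-sided, moderated with eBayes using its trend and robust options) on log2(FPKM + 1), over genes with a mean of at least 1 FPKM. P-values were adjusted over all of them. The log2(FPKM + 1) scale understates changes of low genes, and intervals are 95%. Members, lists and tests were chosen with earlier results of these data known. Named were all members, with every library's value for those of at least 20 FPKM or an unadjusted p under 0.05, and in each list the called genes and the 3 of lowest p. Other settings tried were a pseudocount of 0.1 or 0.5, no filter, a mean of at least 5 FPKM, TPM rescaling with and without the 50 most abundant and mitochondrial genes, quantile normalization, median centring, plain moderation, voom, a replicate block, and leaving out each library.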

Additional observations from a re-analysis of the deposited data

How the results depend on the processing

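With each alternative, 0 members were called higher. Members called lower numbered 0 in the main test, 1 with a mean of at least 5 FPKM (24 members tested; Pfkfb1), 2 with voom (Pfkfb1 and Ldha), and 0 to 2 with a library left out (Pklr and Ppp1r3c without untreated 1, Ldha without untreated 2). The related genes called higher numbered 3 in the main test, 0 without a filter, 1 with quantile normalization (Stbd1), 2 with TPM rescaling without the most abundant genes (Stbd1 and Gaa), 4 with voom (with Slc16a1), 0 with neither trend nor robust moderation, and 0 to 1 with a library left out (Myc without untreated 1, named after its value was seen). Those called lower numbered 0 in the main test, 1 with a mean of at least 5 FPKM (Gpd2), 4 with voom (Gpd2, Got1, Ppargc1a and Cebpa), and 0 to 1 with a library left out (Srebf1 without untreated 1). Of 486 member values under alternatives, 477 kept their side of the threshold and their direction, 7 became calls and 2 turned round; members whose change was under its standard error were given no direction. With a library left out, the log2 change of Pck1 ran from -0.75 to 0.0078 (highest without untreated 1) and that of Pygl from -0.53 to 0.026 (highest without untreated 2), and these were the 2 that turned round. The sample labels do not say whether replicate numbers pair the animals. The correlation of same-numbered deviations was -0.05, which with 2 libraries per group cannot settle it. With the replicate block 1 member was called lower, G6pc (limma adjusted p = 0.00576). Over all genes 232 were called (165 higher, 67 lower), against 20 without a filter, 516 with voom, 357 with the replicate block and 23 to 156 with a library left out. The split was 142 higher and 92 lower after TPM rescaling without the most abundant genes, and 128 and 75 with quantile normalization. With a library left out, the lone library of a group was assumed to vary like the others. The cause of these differences was not tested. Leaving out any library also leaves fewer samples.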

Other observations

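Genes that carry reducing equivalents and carbon around the pathway held 0 calls by limma in 12 tested, with 3 at an unadjusted p under 0.05 and 2 called by voom, beside 15.5% and 4.77% of all genes tested. Gpd2, the mitochondrial glycerol phosphate dehydrogenase, was at 4.68 and 4.63 FPKM in JIB-04 liver and 6.99 and 8.22 in untreated liver (limma adjusted p = 0.0705, voom 0.0119). Got1, cytosolic aspartate aminotransferase, was at 54.4 and 75.7 FPKM in JIB-04 liver and 106 and 104 in untreated liver (limma 0.111, voom 0.0231). Gk, glycerol kinase, was at 16.1 and 13.9 FPKM in JIB-04 liver and 23.97 and 17.3 in untreated liver (limma adjusted p = 0.313). All 3 were lower in both JIB-04 livers. Of 8 pentose phosphate genes, 0 were called by limma or voom and 0 had an unadjusted p under 0.05; H6pd was at 74.4 and 73.1 FPKM in JIB-04 liver and 65.4 and 52.1 in untreated liver (adjusted p = 0.342), Tkt at 15.9 and 18.4 against 12.4 and 15.5 (0.443), and G6pdx at 2.08 and 2.56 against 1.87 and 2.02 (0.638).

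Of 24 regulators of glucose metabolism, 0 were called by limma, 5 had an unadjusted p under 0.05 and 2 were called by voom, beside the same shares of all genes, 15.5% and 4.77%. Cebpa, a transcription factor of hepatocytes, was at 104 and 108 FPKM in JIB-04 liver and 145 and 169 in untreated liver (limma adjusted p = 0.101, voom 0.0348). Ppargc1a, a coactivator of fasting gluconeogenesis, was at 0.860 and 0.715 FPKM in JIB-04 liver and 1.49 and 1.71 in untreated liver (limma 0.126, voom 0.0248), on 243 and 173 reads against 361 and 425. Srebf1, the transcription factor of lipogenesis, was at 33.8 and 25.5 FPKM in JIB-04 liver and 66.2 and 133 in untreated liver (limma 0.168), and passed without untreated 1 (0.00594). In these 3 genes both JIB-04 livers lay below both untreated livers.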
